A study of Mus musculus with 17 samples.

Results

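Acetylcholine is made, packed, recovered and broken down by a small set of proteins, and most of its slow action in the brain runs through muscarinic receptors. The 10 genes described here are the 5 muscarinic receptor genes (Chrm1, Chrm2, Chrm3, Chrm4 and Chrm5) and 5 genes that handle the transmitter (Chat, Slc18a3, Slc5a7, Ache and Bche). They were chosen by symbol from a deposited table of read counts for 56953 genes, and all 10 were found and passed the filter on low counts, as did 23062 genes in all. RNA came from the prefrontal cortex of mice aged 8 months on the B6C3F1/J background, fed regular chow. The age is that of the study's methods, and a figure legend of the study gives a different one. WT mice (n = 5 libraries) carried neither allele, hTau mice (n = 6) carried human Tau with the P301S mutation as a heterozygous transgene driven by the Prnp promoter, and CgA-KO/hTau mice (n = 6) carried the same transgene and lacked Chga in the whole body. Both sexes were used and the sex behind each library is not given in the labels, and mice that lacked Chga without the transgene were not analysed here.

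Chat, choline acetyltransferase, makes acetylcholine from choline. Slc18a3, the vesicular acetylcholine transporter, loads it into vesicles, and Slc5a7, the high-affinity choline transporter, brings choline back into the terminal and sets the pace of synthesis. These 3 genes mark cholinergic neurons, which lie densely in the striatum and basal forebrain and send axons to the cortex, while few cell bodies in the cortex itself make their transcripts. Ache and Bche, acetylcholinesterase and butyrylcholinesterase, split the transmitter after release, Ache mainly from neurons and Bche mainly from glia in the brain. Chrm1, Chrm3 and Chrm5 encode receptors that couple to Gq and phospholipase C, and Chrm2 and Chrm4 encode receptors that couple to Gi and often sit on terminals as autoreceptors.

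Chat and Slc18a3 share 1 locus. In GENCODE M21 (GRCm38), Chat spans chr14:32408203-32465989 on the minus strand and Slc18a3 spans chr14:32462438-32464850 on the same strand, inside the span of Chat. Reads in the shared stretch can be given to either gene, so the split of counts between them is uncertain. Slc5a7 lies apart, at chr17:54273590-54299034 on the minus strand. The bases just upstream of these 3 genes are shown because their transcripts moved together across the libraries. They are RefSeq windows on GRCm38.p6 and end at the start site, or 80 bases before it for Chat. The windows of Chat and Slc18a3 were shortened to their longest stretch outside annotated exons, 170 and 191 bases. Capitals mark the motif matches that the search described below found: an E-box in Chat (chr14:32465990-32466159, minus strand), GC boxes in Slc18a3 (chr14:32464851-32465041, minus strand) and a TATA box in Slc5a7 (chr17:54299035-54299284, minus strand). The match in Slc5a7 starts at base 64 of the 250 shown, far from the start site. The matches are of letters alone, and their use in the cell was not tested.
Chat: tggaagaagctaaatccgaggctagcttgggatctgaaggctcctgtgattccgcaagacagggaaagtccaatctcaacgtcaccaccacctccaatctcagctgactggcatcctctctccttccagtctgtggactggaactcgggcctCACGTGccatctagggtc
Slc18a3: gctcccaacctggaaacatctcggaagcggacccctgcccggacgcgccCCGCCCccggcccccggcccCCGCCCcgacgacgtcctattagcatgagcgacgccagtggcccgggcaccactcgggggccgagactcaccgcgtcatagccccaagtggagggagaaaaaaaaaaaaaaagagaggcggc
Slc5a7: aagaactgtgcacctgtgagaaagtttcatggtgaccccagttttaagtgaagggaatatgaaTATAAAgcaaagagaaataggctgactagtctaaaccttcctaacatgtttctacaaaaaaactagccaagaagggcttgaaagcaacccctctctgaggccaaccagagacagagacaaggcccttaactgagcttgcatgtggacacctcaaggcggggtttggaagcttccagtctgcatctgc

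Entries for 9 of the 10 genes were found among the RefSeq promoters. The motifs were searched on both strands in the 250 bases before each of 32851 start sites, and no motif was common to Chat, Slc18a3 and Slc5a7. The GC box, GGGCGG, stood in 5 of the 9 genes (Chrm2, Chrm4, Ache, Bche and Slc18a3) and in 32.7% of all promoters. The E-box CACGTG stood in Chat and Ache and in 6.02% of promoters, the TATA box TATAAA only in Slc5a7 of the 9 genes and in 12.4%, and the homeodomain core TAATTA only in Chrm5 of the 9 and in 4.84%. Of the half-sites of the RE1 element, which binds a repressor of neuronal genes, CAGCACC stood in Chrm4 and in 5.73% of promoters, and GGACAGC stood in none of the 9 and in 5.28%.

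The total count was 8838334 to 227651681 per library, with WT replicate 4 the shallowest, and about 3 counts stood for 1 sequenced fragment. Levels are given as CPM, a gene's counts relative to the total of the library after edgeR's TMM scaling. Chga was at 0 counts in 6 of 6 CgA-KO/hTau libraries, and Prnp, whose promoter drives the transgene, was higher in hTau than in WT by 1.35 on the log2 scale (edgeR FDR 2.80e-05). Prnp in CgA-KO/hTau was at 0.91 against WT (edgeR FDR 0.000784) and at -0.44 against hTau (edgeR FDR 0.0304), with libraries that overlapped those of hTau. Markers of cortical excitatory neurons summed to 1377 to 3014 CPM in the 17 libraries, which bears on the labelled tissue. Replicates 4, 5 and 6 of hTau lay closer to each other (scaled median deviation of log2 ratios 0.0523 to 0.0607 over 3761 genes) than any other pair, followed by CgA-KO/hTau replicates 1 and 3 at 0.0980. The Y-linked gene Ddx3y had a log2(CPM + 1) of 5.67 to 6.28 in replicates 1, 2 and 3 of every genotype, and no later replicate exceeded 0.0816. In CgA-KO/hTau this divides the libraries as does the split into replicates 1 to 3, high in mitochondrial and glial transcripts, and replicates 4 to 6, so the Y-linked gene and that split cannot be told apart within the genotype. The mitochondrial share of a library was 13.8% to 18.2% in CgA-KO/hTau replicates 1 to 3, and 2.56% to 10.9% in the other 14 libraries. WT replicate 5 stood apart with 1111 CPM of choroid plexus markers, against at most 18.4 CPM in the others. These markers also differed by genotype at low levels. They summed to 12.2 to 18.4 CPM in the other WT libraries, 4.67 to 6.73 CPM in hTau and 7.58 to 11.8 CPM in CgA-KO/hTau.

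Another tissue signal moved with the genotypes, and it is given here because several of the 10 genes followed it. Markers of striatal medium spiny neurons, a list of 14 genes that include Penk, Sh3rf2 and Six3, summed to 1153 to 3377 CPM in WT and 166 to 222 CPM in hTau. In CgA-KO/hTau they summed to 1939 and 1944 CPM in replicates 1 and 3, to 444 CPM in replicate 2 and to 202 to 228 CPM in replicates 4 to 6. All 14 were lower in hTau than in WT, and 10 of 14 were higher in CgA-KO/hTau than in hTau (edgeR FDR under 0.05). Of 7 genes of cholinergic neuron identity, 6 were called lower in hTau than in WT. The other, Zic4, was not called, with means of 1.16 CPM in WT and 1.99 CPM in hTau. Not all followed Chat within CgA-KO/hTau. Ngfr was at 1.36 and 2.05 CPM in replicates 1 and 3 and at 0.664 to 1.40 CPM in the other 4. The homeodomain genes Lhx8 and Isl1 were at 0 in 6 of 6 hTau libraries, and ran from 1.11 to 4.17 and 1.19 to 4.59 CPM in WT. A count of 0 would allow up to 9 counts, which is 0.0396 to 0.164 CPM in the hTau libraries. In CgA-KO/hTau, Lhx8 was at 1.23 and 1.27 CPM in replicates 1 and 3 and at 0 in the other 4. In bulk RNA, fewer cells of a type and less RNA per cell cannot be told apart. The part of tissue makeup in the results on the 10 genes was not tested beyond the values given beside them.

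Of the 10 genes, 5 were called between hTau and WT at an FDR under 0.05, where 5.9% of all genes tested were called. FDR is the p-value of edgeR's quasi-likelihood test after Benjamini-Hochberg adjustment over all 23062 genes. Chrm3 was higher in hTau, against 1.95% of all genes called higher, and Chat, Slc18a3, Slc5a7 and Chrm5 were lower, against 3.95% called lower. The libraries of these same 5 genes did not overlap between hTau and WT, as did those of 9.52% of all genes. Between CgA-KO/hTau and hTau 2 genes were called, against a background of 9.72%. Bche was higher (background 5.5%) and Chrm3 was lower (background 4.22%), and only Bche of the 10 had libraries that did not overlap (background 6.63%). Between CgA-KO/hTau and WT 3 genes were called, Chrm5, Ache and Slc18a3, all lower, where 6.46% of all genes were called and 2.89% were called lower. Only Chrm5 of the 10 did not overlap there (background 3.6%). A second rule asked for a log2 fold change over 0.5 in size and a p-value under 0.01 before adjustment, and its counts were 5 (background 7.39%), 2 (background 9.73%) and 4 (background 7.75%), and the fourth gene of the last comparison was Slc5a7. With replicates 4 to 6 of hTau averaged, and replicates 1 and 3 of CgA-KO/hTau averaged, the counts of called genes were 2, 0 and 2. Calls over all genes fell in that fit too, to 430, 156 and 577, from 1361, 2242 and 1489. The first 2 comparisons share the 6 hTau libraries, so a gene high or low in hTau by chance tends to appear in both with opposite signs.

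**Figure D1:**
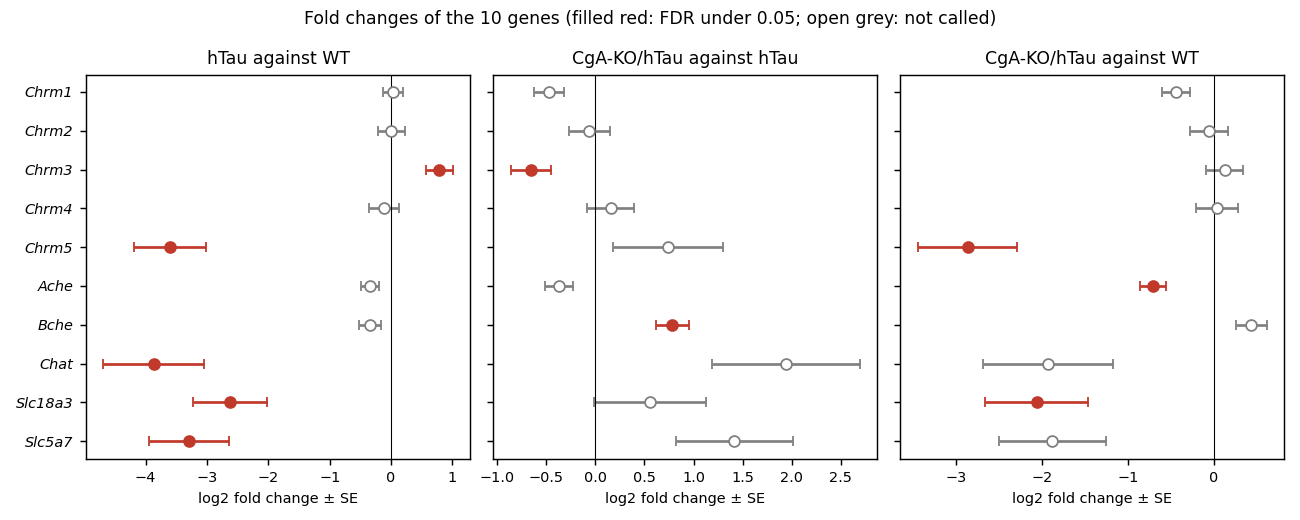
Log2 fold change (x axis, with bars of 1 SE from edgeR) of the 10 genes (y axis) in 3 comparisons, with filled red points for genes called at an FDR under 0.05 and open grey points for the others. Chat, Slc18a3, Slc5a7 and Chrm5 lie far to the left in hTau against WT, with log2 fold changes of -3.87, -2.62, -3.29 and -3.61, and the x axes differ between the panels.

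The genes of acetylcholine synthesis, loading and choline uptake were far lower in hTau than in WT. Chat was measured at 2.69, 2.69, 10.0, 3.08 and 9.97 CPM in WT replicates 1 to 5. In hTau it ran from 0.216 to 0.475 CPM (median 0.438), so that the highest hTau library lay under the lowest WT library. Chat was 14.6-fold lower in hTau (log2 fold change -3.87 ± 0.82 SE, edgeR FDR 0.00846), and with the near-identical libraries averaged the FDR was 0.0540 (edgeR). The WT libraries themselves fell into a low set, replicates 1, 2 and 4, and a high set, replicates 3 and 5. In CgA-KO/hTau, Chat was at 4.17 and 3.86 CPM in replicates 1 and 3 and at 0.120 to 0.387 CPM in the other 4. The genotype mean of 1.48 ± 1.97 CPM (SD, n = 6) thus describes none of its libraries.

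Slc18a3 had the same split of libraries. It was at 1.21, 0.892, 3.92, 1.60 and 3.76 CPM in WT replicates 1 to 5 and at 0.164 to 0.494 CPM (median 0.401) in hTau. The groups did not overlap. Slc18a3 was 6.15-fold lower in hTau (log2 fold change -2.62 ± 0.60 SE, edgeR FDR 0.0150). Without WT replicate 5 its FDR was 0.0560 (edgeR), and with the near-identical libraries averaged it was 0.0728 (edgeR). In CgA-KO/hTau it was at 1.37 and 1.11 CPM in replicates 1 and 3 and at 0.0797 to 0.313 CPM in the others, where the 2 lowest libraries held 3 and 4 counts. At that depth about 1 fragment stands behind each value. A count of 0 would allow up to 3 fragments, or 9 counts.

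Slc5a7 was the most abundant of the 3 genes in CPM per kilobase of exon. Its CPM was 6.31, 6.73, 21.9, 10.2 and 21.6 in WT replicates 1 to 5, and 0.965 to 1.71 in hTau (median 1.38). It was 9.81-fold lower in hTau (log2 fold change -3.29 ± 0.65 SE, edgeR FDR 0.00521), with no overlap. In CgA-KO/hTau it was at 9.29 and 8.42 CPM in replicates 1 and 3 and at 0.553 to 1.24 CPM in the others. The 2 high libraries of CgA-KO/hTau lay inside the range of WT, and of the other 4, 3 lay inside the range of hTau and 1 below it.

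The 3 genes kept a similar ratio where they were high. Slc5a7 counts per Chat count were 2.17 to 3.30 in the 5 WT libraries and 2.23 and 2.18 in CgA-KO/hTau replicates 1 and 3. In the hTau libraries the ratio was 2.28 to 7.91 and in the 4 low CgA-KO/hTau libraries 1.43 to 9.17, from 6 to 104 counts of Chat. In CgA-KO/hTau replicate 2 the signals were mixed. Its striatal markers summed to 444 CPM, with Drd2 at 10.9 CPM against at most 1.31 CPM in hTau, and Isl1 was at 0.857 CPM, while Lhx8 was at 0 and Chat at 0.120 CPM.

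None of the 3 genes was called between CgA-KO/hTau and hTau. The log2 fold changes were 1.94 ± 0.76 SE for Chat (edgeR FDR 0.106), 0.56 ± 0.57 SE for Slc18a3 (edgeR FDR 0.558) and 1.41 ± 0.60 SE for Slc5a7 (edgeR FDR 0.133). Leaving out CgA-KO/hTau replicate 4 brought Chat under the threshold (edgeR FDR 0.0488). Without WT replicates 3 and 5 and CgA-KO/hTau replicates 1 and 3, an alternative chosen after the data had been seen, the signs turned: -0.83 for Chat, -0.94 for Slc18a3 and -0.46 for Slc5a7. In that fit the 3 genes were called lower in hTau than in WT, with an edgeR FDR of 0.000121 to 0.0469. Leaving out libraries for their high levels of cholinergic neuron genes also narrows the spread within WT. The WT libraries left summed to 1153 to 1227 CPM of striatal markers against 166 to 222 CPM in hTau, so the fit cannot tell the calls apart from that signal. Against WT, Slc18a3 was 4.18-fold lower in CgA-KO/hTau (log2 fold change -2.06 ± 0.60 SE, edgeR FDR 0.0470), a call lost without any of CgA-KO/hTau replicates 2, 4, 5 and 6 and WT replicates 3 and 5 (edgeR FDR 0.0577 to 0.140). Chat, at -1.93 ± 0.76 SE (edgeR FDR 0.140), and Slc5a7, at -1.88 ± 0.62 SE (edgeR FDR 0.0785), were not called. Slc5a7 was called without CgA-KO/hTau replicate 1 (edgeR FDR 0.0361) or replicate 3 (edgeR FDR 0.0435).

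**Figure D2:**
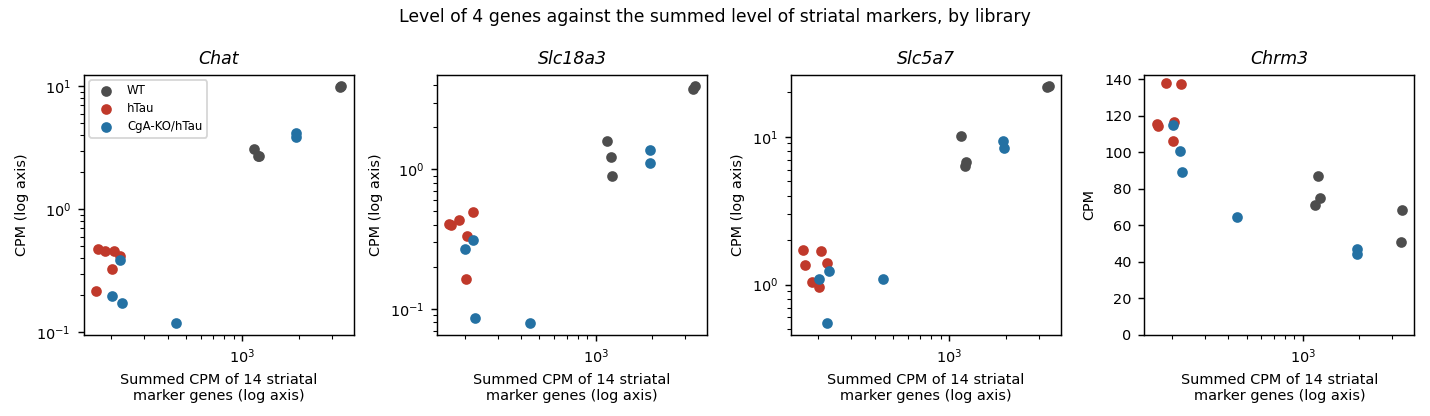
CPM of Chat, Slc18a3 and Slc5a7 (y axes, log scale) and of Chrm3 (y axis, linear scale) against the summed CPM of 14 striatal marker genes (x axes, log scale), 1 point per library. The 6 hTau libraries sit at 166 to 222 CPM of striatal markers with the lowest Slc5a7 levels beside those of CgA-KO/hTau replicates 2, 4, 5 and 6, and Chrm3 is highest there.

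When the striatal marker level of each library entered the model as a covariate, the differences of the 3 genes between hTau and WT were small: a log2 fold change of 0.31 for Chat (edgeR FDR 0.746), 0.11 for Slc18a3 (edgeR FDR 0.932) and -0.09 for Slc5a7 (edgeR FDR 0.911). WT and hTau libraries did not overlap in that covariate, so the fit carries the slope seen within the genotypes across a gap without WT or hTau libraries. Inside that gap lay CgA-KO/hTau replicate 2, at -0.0524, against at most -1.40 in hTau and at least 0.965 in WT. CgA-KO/hTau replicates 1 and 3 lay inside the WT range, at 2.12 and 2.11. With this covariate Chat was at -1.04 (edgeR FDR 0.123) between CgA-KO/hTau and hTau, and none of the 3 genes was called in any comparison.

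Of the 2 cholinesterases, Ache was lower in CgA-KO/hTau than in WT and Bche was higher in CgA-KO/hTau than in hTau. Ache (chr5:137287519-137294466, plus strand) was at 44.0, 38.3, 39.1, 27.7 and 47.3 CPM in WT replicates 1 to 5. It ran from 24.6 to 36.3 CPM in hTau (median 31.9) and from 18.2 to 30.9 CPM in CgA-KO/hTau (median 23.2). The means stepped down over the genotypes and each neighbouring pair overlapped. Ache was 1.63-fold lower in CgA-KO/hTau than in WT (log2 fold change -0.71 ± 0.15 SE, edgeR FDR 0.00954), with WT replicate 4, the shallowest library, inside the CgA-KO/hTau range. The differences of hTau from WT (-0.34 ± 0.15 SE, edgeR FDR 0.194) and of CgA-KO/hTau from hTau (-0.37 ± 0.14 SE, edgeR FDR 0.0999) were not called. The second was called without CgA-KO/hTau replicate 5 (edgeR FDR 0.0453). The call against WT was kept without any 1 library, and was lost without the 4 libraries high in cholinergic neuron genes (edgeR FDR 0.183) and without CgA-KO/hTau replicates 1 to 3 (edgeR FDR 0.101), both chosen after the data had been seen. The libraries lowest in Ache, CgA-KO/hTau replicates 1, 2, 3 and 6, were also those with the highest mitochondrial share, at 15.3%, 18.2%, 13.8% and 10.9%. WT replicate 4, the WT library lowest in Ache, had a share of 7.94%. In contrast, hTau replicate 6, with a share of 4.59%, had 24.6 CPM of Ache. The part of the mitochondrial share in the Ache result was not tested.

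Bche (chr3:73635808-73708415, minus strand) was at 3.27, 3.10, 4.11, 6.05 and 2.93 CPM in WT replicates 1 to 5, where the highest value, of replicate 4, rests on 53 counts. It was tight in hTau, from 2.78 to 3.22 CPM (median 2.94), and ran from 4.0 to 6.99 CPM in CgA-KO/hTau (median 4.95). Every CgA-KO/hTau library was thus above every hTau library, by 1.72-fold in the fit (log2 fold change 0.78 ± 0.17 SE, edgeR FDR 0.0107). This call was kept without any 1 of the 12 libraries (edgeR FDR 0.00664 to 0.0294) and with the striatal marker level as a covariate. Bche did not differ detectably between hTau and WT (-0.35 ± 0.18 SE, edgeR FDR 0.279) or between CgA-KO/hTau and WT (0.43 ± 0.18 SE, edgeR FDR 0.166). The second was called without WT replicate 4 (edgeR FDR 0.0194).

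Glial markers were high in some of the libraries high in Bche. Astrocyte markers summed to 1898 to 2248 CPM in CgA-KO/hTau replicates 1 to 3 and to 948 to 1416 CPM in the other 14 libraries, and oligodendrocyte markers to 2387 to 2756 CPM against 1047 to 1623 CPM. Bche in the 3 CgA-KO/hTau libraries with the lower glial sums, replicates 4 to 6, was at 4.60, 4.0 and 5.37 CPM, above the highest hTau library. Without replicates 1 to 3, an alternative chosen after the data had been seen, the log2 fold change was 0.63 and the FDR was 0.118 (edgeR), with 3 libraries left in the group. With the near-identical libraries averaged, the log2 fold change was 0.78 and the FDR was 0.106 (edgeR). The mitochondrial share was also high in some of these libraries. It was 7.94% in WT replicate 4, the WT library highest in Bche, and 18.2% and 10.9% in CgA-KO/hTau replicates 2 and 6, the highest of that genotype, against 2.56% to 4.59% in hTau. CgA-KO/hTau replicate 4, with a share of 3.84%, had 4.60 CPM of Bche, and the part of the mitochondrial share in the result was not tested. Within replicates 1 to 3, Bche was at 4.80 to 6.99 CPM in CgA-KO/hTau and 2.84 to 3.22 CPM in hTau, and within replicates 4 to 6 at 4.0 to 5.37 and 2.78 to 2.98 CPM. With Ddx3y as a covariate the call was kept (0.78, edgeR FDR 0.0125).

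**Figure D3:**
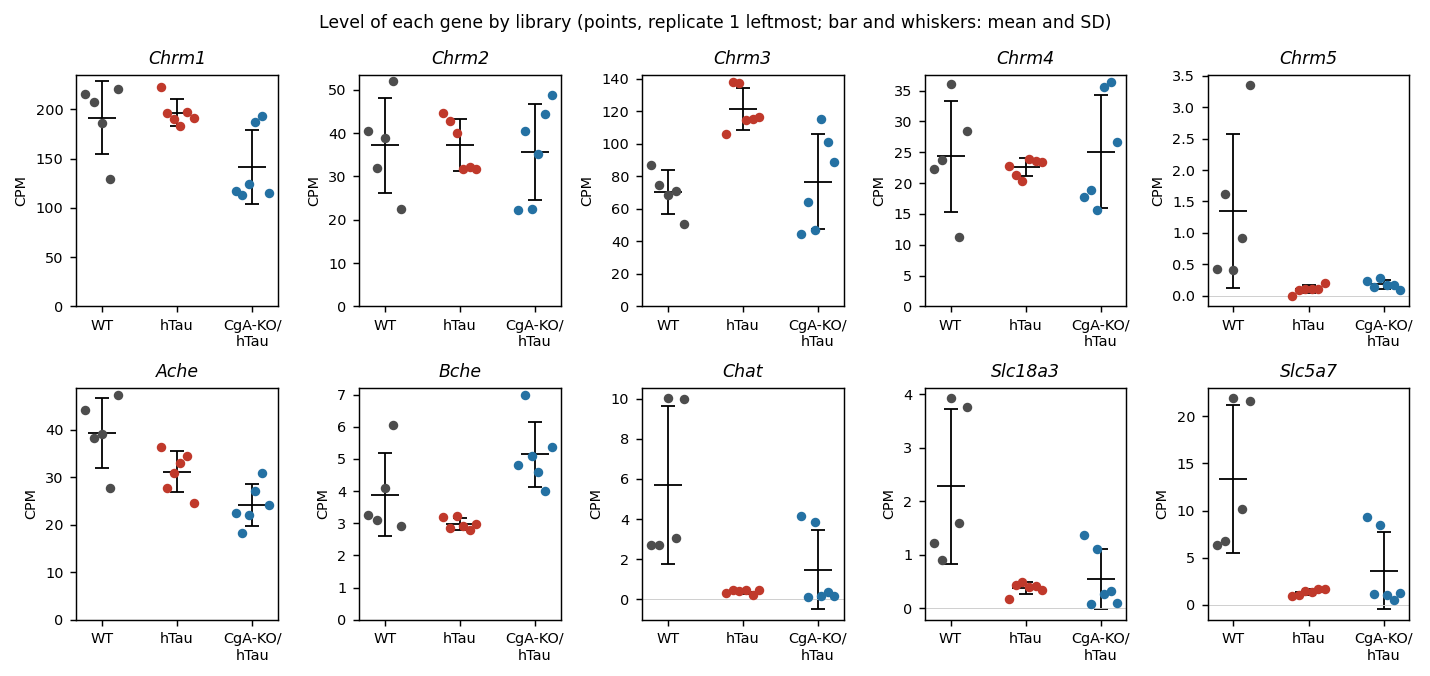
Level in CPM (y axes, linear scale from 0 and different for each gene) of the 10 genes in each library, with points ordered from replicate 1 at the left and black bars for the mean ± SD of WT (n = 5), hTau (n = 6) and CgA-KO/hTau (n = 6). Chat, Slc18a3 and Slc5a7 share the same high libraries, WT replicates 3 and 5 and CgA-KO/hTau replicates 1 and 3, and Bche in CgA-KO/hTau lies above the hTau range of 2.78 to 3.22 CPM.

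Among the receptors that couple to Gq, Chrm3 was higher and Chrm5 lower in hTau than in WT. Chrm3 (chr13:9875486-10360847, minus strand) was at 87.2, 74.8, 68.4, 70.8 and 50.5 CPM in WT replicates 1 to 5 and at 106 to 138 CPM (median 116) in hTau. No hTau library reached down to a WT library, and Chrm3 was 1.73-fold higher (log2 fold change 0.79 ± 0.22 SE, edgeR FDR 0.0396). The call held without WT replicate 1 or hTau replicate 1 and was lost without any other 1 of the 11 libraries (edgeR FDR up to 0.123), while the log2 fold change stayed between 0.69 and 0.88. In CgA-KO/hTau the libraries split: 44.3, 64.2 and 47.0 CPM in replicates 1 to 3, and 115, 101 and 88.9 CPM in replicates 4 to 6. Of the first 3, 2 lay below the WT range and 1 inside it, and of the last 3, replicate 4 lay inside the hTau range and the others between the ranges of hTau and WT. Chrm3 was 1.58-fold lower in CgA-KO/hTau than in hTau (log2 fold change -0.66 ± 0.20 SE, edgeR FDR 0.0489). That call was kept only without CgA-KO/hTau replicate 4 or 5, of the 12 libraries compared, and without replicates 1 to 3 the log2 fold change was -0.27 (edgeR FDR 0.341). Within replicates 1 to 3, Chrm3 was at 44.3 to 64.2 CPM in CgA-KO/hTau and 106 to 138 CPM in hTau, and within replicates 4 to 6 at 88.9 to 115 and 114 to 117 CPM. With Ddx3y as a covariate the log2 fold change was -0.70 (edgeR FDR 0.0422). Between CgA-KO/hTau and WT Chrm3 was at 0.13 ± 0.21 SE (edgeR FDR 0.794).

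Chrm3 was lowest in libraries with high striatal markers, CgA-KO/hTau replicates 1 and 3 and WT replicate 5. WT replicate 3, with the highest striatal sum of all at 3377 CPM, had 68.4 CPM of Chrm3. CgA-KO/hTau replicate 2, with a striatal sum of 444 CPM, had 64.2 CPM. With the striatal marker level as a covariate, the log2 fold change of Chrm3 was -0.23 between hTau and WT (edgeR FDR 0.424), opposite in sign to the value without it, and -0.29 between CgA-KO/hTau and hTau (edgeR FDR 0.141). Without WT replicates 3 and 5 and CgA-KO/hTau replicates 1 and 3, Chrm3 was called higher in hTau than in WT, and was at -0.39 in CgA-KO/hTau against hTau (edgeR FDR 0.126). The WT libraries left in that fit summed to 1153 to 1227 CPM of striatal markers, against 166 to 222 CPM in hTau. Of 10 markers of cortical interneurons, 3 were called between hTau and WT. Pvalb, a gene of fast-spiking cells, was higher in hTau by 1.37 ± 0.24 SE on the log2 scale (edgeR FDR 0.00244), and Calb2 and Gad2 were lower. Between CgA-KO/hTau and hTau 4 of the 10 were called, all lower, where 4.22% of all genes were called lower. The 10 summed to 763 to 816 CPM in CgA-KO/hTau replicates 1 to 3 and 1197 to 1285 CPM in replicates 4 to 6. They summed to 1338 to 1512 CPM in hTau and 1270 to 1586 CPM in WT. The part of cell makeup in the Chrm3 result was not tested.

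Chrm5 (chr2:112479171-112480769, minus strand), the receptor best known from midbrain dopamine neurons, was the least abundant of the 5. It was at 0.434, 1.61, 0.403, 0.912 and 3.35 CPM in WT replicates 1 to 5, from 8 to 347 counts. In hTau it was at 0 to 0.202 CPM (median 0.109) from at most 46 counts, and in CgA-KO/hTau at 0.0866 to 0.281 CPM (median 0.172) from at most 51. The 0 was that of hTau replicate 1, where the limit of 9 counts is 0.164 CPM. Every library with the transgene was below every WT library. Chrm5 was 12.2-fold lower in hTau (log2 fold change -3.61 ± 0.59 SE, edgeR FDR 0.00150) and 7.30-fold lower in CgA-KO/hTau (log2 fold change -2.87 ± 0.58 SE, edgeR FDR 0.00804) than in WT. It was at 0.74 ± 0.56 SE between CgA-KO/hTau and hTau (edgeR FDR 0.409). The 2 genotypes with the transgene thus differed from WT in Chrm5 and were not distinguishable from each other at this depth. Both calls were kept without any 1 library, with an FDR of 0.0466 at most (edgeR). The call between CgA-KO/hTau and WT was lost with limma voom (FDR 0.107), with the replicate number as a block (edgeR FDR 0.0576) and without the 4 libraries high in cholinergic neuron genes (edgeR FDR 0.0553).

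Over the 17 libraries Pearson's r of log2(CPM + 1) between Chrm5 and Chat was 0.695, against 0.981 between Chat and Slc5a7, and the libraries share genotype. Among the libraries high in Chat, Chrm5 varied. WT replicate 3 had 10.0 CPM of Chat and 0.403 CPM of Chrm5, the lowest Chrm5 level in WT, and CgA-KO/hTau replicates 1 and 3 had 0.232 and 0.281 CPM of Chrm5. WT replicate 5, with the highest Chrm5 level, was also the library highest in choroid plexus markers. Without it the log2 fold change of Chrm5 between hTau and WT was -2.91 and was still called. With the striatal covariate Chrm5 was at -2.62 between hTau and WT (edgeR FDR 0.0721).

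Chrm1 (chr19:8663789-8683587, plus strand), the main muscarinic receptor of cortical pyramidal neurons, was at 216, 208, 186, 129 and 221 CPM in WT replicates 1 to 5. It ran from 183 to 222 CPM in hTau (median 194) and from 113 to 193 CPM in CgA-KO/hTau (median 121). In CgA-KO/hTau 4 of 6 libraries lay at 113 to 124 CPM, below every library of the other genotypes, of which WT replicate 4 was the lowest at 129 CPM, and replicates 4 and 5 lay at 187 and 193 CPM. Markers of cortical excitatory neurons summed to 1832, 1652 and 1407 CPM in CgA-KO/hTau replicates 1 to 3, 2268 to 2428 CPM in replicates 4 to 6 and 2375 to 2569 CPM in hTau, and their part in the Chrm1 level was not tested. Replicate 6, low in Chrm1 at 115 CPM, had 2428 CPM of these markers, and WT replicate 5, at 221 CPM of Chrm1, had 1377 CPM, the lowest sum of all. The 5 libraries lowest in Chrm1, CgA-KO/hTau replicates 1, 2, 3 and 6 and WT replicate 4, were those with the highest mitochondrial share, at 15.3%, 18.2%, 13.8%, 10.9% and 7.94%, and its part in the Chrm1 level was not tested. The log2 fold change of Chrm1 was -0.47 ± 0.15 SE from hTau (edgeR FDR 0.0587) and -0.44 ± 0.16 SE from WT (edgeR FDR 0.113), and neither was called. The first was called without CgA-KO/hTau replicate 4 (edgeR FDR 0.0189) or 5 (edgeR FDR 0.0214), and the second without either of them or WT replicate 4 (edgeR FDR 0.0299 to 0.0457). Against hTau, Chrm1 was also called with DESeq2 (FDR 0.0300), limma voom (FDR 0.00530), counts divided by 3 (edgeR FDR 0.0480) and only the compared genotypes in the fit (edgeR FDR 0.0467). Against WT it was called with limma voom (FDR 0.0148) and with the striatal covariate (edgeR FDR 0.0339). Chrm1 was at 0.03 ± 0.16 SE between hTau and WT (edgeR FDR 0.939).

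The receptors that couple to Gi were called in none of the comparisons. Chrm2 (chr6:36388084-36528414, plus strand) was at 40.5, 32.0, 39.0, 52.0 and 22.4 CPM in WT replicates 1 to 5, at 31.6 to 44.6 CPM in hTau and at 22.2 to 48.8 CPM in CgA-KO/hTau. Its lowest levels, 22.4, 22.2 and 22.6 CPM, were those of WT replicate 5 and CgA-KO/hTau replicates 1 and 3. The log2 fold changes were 0.01 ± 0.22 SE, -0.06 ± 0.21 SE and -0.06 ± 0.22 SE for hTau against WT, CgA-KO/hTau against hTau and CgA-KO/hTau against WT, with an edgeR FDR of 0.881 to 0.995. With the striatal covariate Chrm2 was called lower than in WT both in hTau, at -0.86 (edgeR FDR 0.0307), and in CgA-KO/hTau, at -0.58 (edgeR FDR 0.0421).

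Chrm4 (chr2:91927249-91928688, plus strand), a receptor of striatal neurons that is also found in cortex, was at 22.2, 23.7, 36.0, 11.3 and 28.4 CPM in WT replicates 1 to 5. It was at 20.3 to 23.9 CPM in hTau and at 15.6 to 36.3 CPM in CgA-KO/hTau, where replicates 4 and 5 were highest at 35.5 and 36.3 CPM. The libraries high in striatal markers were split for Chrm4: WT replicate 3 was near its top, and CgA-KO/hTau replicates 1 and 3, at 17.7 and 15.6 CPM, were near its bottom. The log2 fold changes were -0.12 ± 0.25 SE, 0.15 ± 0.24 SE and 0.03 ± 0.25 SE in the same order, with an edgeR FDR of 0.711 to 0.962.

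**Figure D4:**
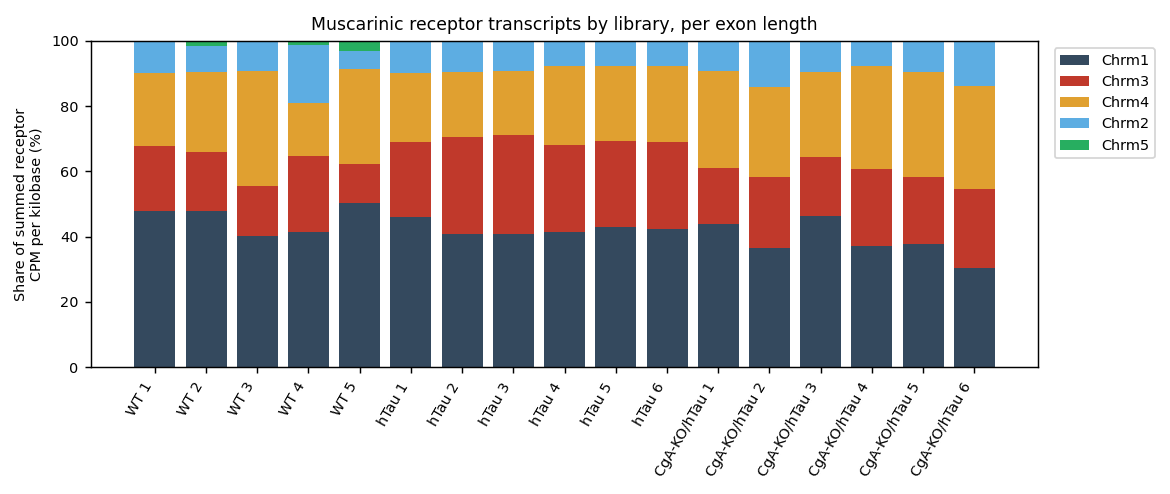
Share in percent (y axis) of each muscarinic receptor gene in the sum of the 5, from CPM per kilobase of exon, in each of 17 libraries (x axis). Chrm1 takes the largest share in 16 of 17 libraries, and the Chrm3 share, 22.8% to 30.5% in hTau, exceeds in every hTau library that of 8 of the 11 libraries of the other genotypes.

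Per kilobase of exon, the order of the 5 receptor levels was Chrm1, Chrm3, Chrm4, Chrm2 and Chrm5 in hTau, at 30.3, 19.4, 15.7, 6.14 and 0.0660 CPM per kilobase, and the libraries of neighbours in that order did not overlap. The exon models of Chrm4 and Chrm5 hold the coding length alone (1440 and 1599 bases), so their levels per kilobase are too high if reads outside it were counted. In WT the means were 29.6, 11.2, 16.9, 6.14 and 0.840 CPM per kilobase for the same genes, and Chrm3 and Chrm4 changed places, with libraries that overlapped. In CgA-KO/hTau they were 21.8, 12.3, 17.4, 5.88 and 0.113, in the order of WT, and the libraries of Chrm4 and Chrm3 overlapped there too. Chrm3 took 17.7% ± 4.40 (SD, n = 5) of the receptor sum in WT, 27.1% ± 2.74 (SD, n = 6) in hTau and 20.9% ± 2.86 (SD, n = 6) in CgA-KO/hTau. Chrm1 took 45.5% ± 4.49, 42.3% ± 2.04 and 38.7% ± 5.69 in the same order. The sum of the 5 was 68.5 to 74.5 CPM per kilobase in hTau and as low as 41.3 and 41.4 in CgA-KO/hTau replicates 1 and 3. Among the handling genes in hTau, Ache was highest at 6.74 CPM per kilobase, followed by Bche at 0.443, Slc5a7 at 0.241, Slc18a3 at 0.154 and Chat at 0.0834. The libraries of Slc5a7 and Slc18a3, and of Slc18a3 and Chat, overlapped. In WT the order after Ache, at 8.50, was Slc5a7 at 2.36, Chat at 1.21, Slc18a3 at 0.943 and Bche at 0.577 CPM per kilobase, and each neighbouring pair among these last 4 overlapped.

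Of 29 genes that carry muscarinic signals inside the cell, 3 were called between hTau and WT, all lower in hTau, where 5.9% of all genes were called and 3.95% were called lower. The 3 were Dgkb, a diacylglycerol kinase abundant in striatum (log2 fold change -1.10 ± 0.18 SE, edgeR FDR 0.00151), Kcnj5, a subunit of the potassium channel that Gi-coupled receptors open (-2.26 ± 0.54 SE, edgeR FDR 0.0173), and Rgs2, an inhibitor of Gq (-0.53 ± 0.13 SE, edgeR FDR 0.0173). Between CgA-KO/hTau and hTau 2 of the 29 were called, where 9.72% of all genes were. Kcnj5 was higher (1.92 ± 0.51 SE, edgeR FDR 0.0271) and Prkca, a protein kinase C, was lower (-0.56 ± 0.13 SE, edgeR FDR 0.0155). Kcnj5 was at 0.0967 to 0.947 CPM in hTau, with replicate 1 the highest, and at 0.516 to 1.47 CPM in CgA-KO/hTau. Only Dgkb of the 29 was called between CgA-KO/hTau and WT (background 6.46%), at -0.72 ± 0.18 SE (edgeR FDR 0.0234). The medians of the list were 0.03, -0.08 and 0.00349 on the log2 scale in the 3 comparisons, beside 0.01, 0.03 and 0.01 over all genes tested.

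Of 19 genes tested for choline supply and cholinesterase anchoring, 2 were called between hTau and WT, both lower in hTau, beside the same 5.9% and 3.95% of all genes. Slc44a5, a choline transporter-like protein, was at 8.90 to 30.5 CPM in WT and 6.06 to 8.26 CPM in hTau (log2 fold change -1.33 ± 0.26 SE, edgeR FDR 0.00490). Slc22a3, an organic cation transporter, was at 1.82 to 6.21 CPM in WT and 1.0 to 1.70 CPM in hTau (log2 fold change -1.60 ± 0.42 SE, edgeR FDR 0.0284). None of the 19 was called by edgeR between CgA-KO/hTau and hTau, where 4 had a p-value under 0.05 before adjustment. Against WT, Slc44a5 (-1.25 ± 0.26 SE, edgeR FDR 0.00920) and Pcyt1b, an enzyme that uses choline for phosphatidylcholine (-0.29 ± 0.08 SE, edgeR FDR 0.0378), were lower in CgA-KO/hTau. Of 7 genes of cholinergic neuron identity, 6 were lower in hTau than in WT, 4 were higher in CgA-KO/hTau than in hTau, and none was called by edgeR between CgA-KO/hTau and WT, where 2 had a p-value under 0.05 before adjustment. Slc10a4, a protein of cholinergic and monoaminergic vesicles, was at 1.88 to 7.35 CPM in WT and at most 0.173 CPM in hTau.

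**Figure D5:**
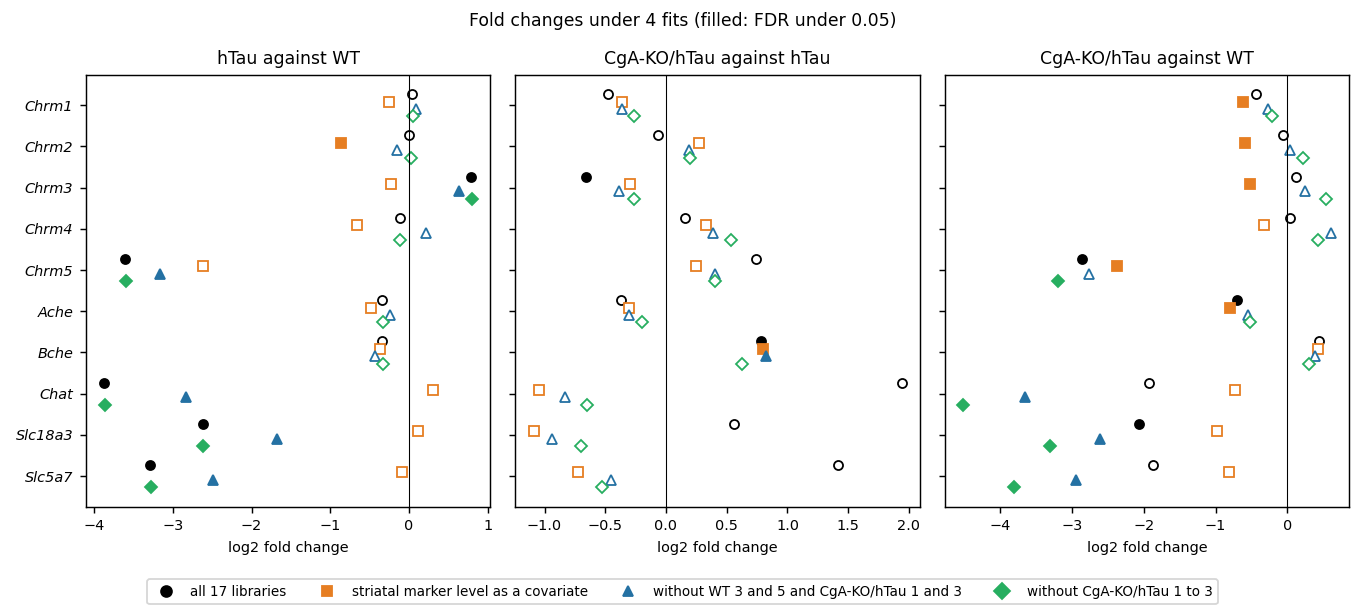
Log2 fold change (x axis) of the 10 genes (y axis) in 3 comparisons under 4 fits, with a marker shape and colour for each fit, filled where the FDR is under 0.05 and open otherwise. The values of Chat, Slc18a3 and Slc5a7 move most between the fits, and those of Bche in CgA-KO/hTau against hTau stay between 0.63 and 0.82.

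The genes whose levels followed each of the 10 most closely are given by Pearson's r of log2(CPM + 1) over the 17 libraries, among 15466 genes with a mean of at least 1 CPM. The libraries share genotype, depth and tissue makeup, so r is a description alone. Chat was closest to Slc10a4 (r = 0.985), Actn2 (0.980) and Tbc1d8 (0.980), and Slc5a7 to Slc10a4 (0.988), the homeodomain gene Dlx6 (0.979) and Ptpro (0.977). Chrm3 was closest to Hapln4, a link protein of perineuronal nets (r = 0.980), Sorl1 (0.977) and Nos1ap (0.973), and Chrm1 to Sez6l2 (0.971), Phyhip (0.970) and Pacs1 (0.964). Among the genes closest to Bche were Zfp967 (0.924) and the mitochondrial transfer RNA gene mt-Ts1 (0.912). Ache, Chrm2 and Chrm4 had looser matches: Dscaml1 (0.906), Pik3r1 (0.914) and Sox8 (0.916) led their lists. Chrm5 and Slc18a3 had means under 1 CPM and were not matched.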

How the data were processed

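The authors isolated polyA RNA from the prefrontal cortex of 17 mice and sequenced it with paired-end reads. Trimming was done with Trimmomatic 0.39, alignment to mm10 with STAR 2.7.10b and quantification with StringTie 1.3.6, and prepDE turned the result into whole-number counts. The deposited values are these counts, without normalization. The annotation release and the strand setting are not given in the sources used here. Low counts peaked at multiples of 3, so about 3 counts stand for 1 fragment, which makes low counts look more precise than they are. Intervals and limits for counts of 0 (9 counts) cover counting error only.

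Samples were grouped by their labels. Counts were fitted with edgeR 4.0.16 in R 4.3.3 (TMM, filterByExpr by genotype, quasi-likelihood test, all 17 libraries, 1 mean per genotype), with Benjamini-Hochberg adjustment over 23062 genes and a call at an FDR under 0.05. The p-values measure the spread between libraries of separate mice as far as the labels tell. The 10 genes and all lists were chosen with earlier results of these data known. Besides the 10 genes, the text names list genes past the threshold (the 4 with the smallest p per list and comparison), the 3 genes closest to each of the 10, and Chga and Prnp as checks of genotype. Pvalb is named under the first of these rules. The value of Drd2 in 1 library was chosen after its values were seen. Some genes that these rules name are not reported here.

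The alternative fits used limma 3.58.1 voom with quality weights, DESeq2 1.42.0, the size factors of DESeq2 in edgeR, a minimum of 10 counts in every library, no low-count filter, counts divided by 3, only the compared genotypes, a replicate block, the striatal marker score or Ddx3y as a covariate, averaging near-identical libraries, and leaving out each library. Leaving out the 4 libraries high in cholinergic neuron genes, or the 3 high in glial genes, was chosen after seeing the data. On simulated counts the steps were tested and recovered the changed genes. Exon lengths and coordinates are those of GENCODE M21, and promoters those of RefSeq (GRCm38.p6). Figures were made with Python 3.11.15 and matplotlib 3.10.9.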

Additional observations from a re-analysis of the deposited data

Results flagged for a closer look

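Of the 30 sets of libraries compared (each of the 10 genes in each genotype), 1 held a library far from the others by Dixon's test, which flags about 1 in 20 by chance. It was Chrm1 in hTau, where replicate 1 was at 222 CPM and the other 5 libraries lay at 183 to 197 CPM. The gap to its nearest neighbour was 0.648 of the whole range, against a critical value of 0.625. Without this library the log2 fold change of Chrm1 between hTau and WT was -0.00327, close to the 0.03 with it, and neither value was called.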

How the results depend on the processing

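Depth limited Chrm5, Chat and Slc18a3, which some libraries held at under 9 counts and which a minimum of 10 counts in every library removed. Chrm5 and Slc5a7 were called lower in hTau than in WT with the near-identical libraries averaged and without any 1 library. For the changes below the cause was not tested, beyond what fewer genes or libraries in a fit imply. Of the 10 genes, 5 were called between hTau and WT. The count was 2 with at least 10 counts in every library, 2 with the replicate block, 1 with the striatal covariate, 2 with near-identical libraries averaged, and 3 to 5 with 1 library left out (3 without WT replicate 5). For CgA-KO/hTau against hTau it was 2, and 1 with no filter on low counts, 1 with the replicate block, 1 with the striatal covariate, 0 with near-identical libraries averaged, 1 without the 4 libraries high in cholinergic neuron genes, 0 without the 3 libraries high in glial genes, and 1 to 4 with 1 library left out (4 without CgA-KO/hTau replicate 4 or 5). For CgA-KO/hTau against WT it was 3, and 1 with at least 10 counts in every library, 6 with limma voom, 1 with the replicate block, 5 with the striatal covariate, and 2 to 5 with 1 library left out (5 without WT replicate 4). Where edgeR called 0 of the 10 genes, 3 had a p-value under 0.05 before adjustment with near-identical libraries averaged and 2 without the 3 libraries.

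Of all genes, 1361 were called between hTau and WT. The count was 2396 with DESeq2, 2275 with only the compared genotypes in the fit, 3967 with limma voom, 660 with the replicate block, 3974 with the striatal covariate, 430 with near-identical libraries averaged, 732 without the 4 libraries, 2175 without the 3 libraries, and 632 to 1658 with 1 library left out. CgA-KO/hTau against hTau gave 2242, and 3958 with DESeq2, 5229 with limma voom, 654 with the replicate block, 1295 with the striatal covariate, 156 with near-identical libraries averaged, 700 without the 4 libraries, 346 without the 3 libraries, and 1019 to 3822 with 1 library left out. CgA-KO/hTau against WT gave 1489, and 2564 with DESeq2, 266 with only the compared genotypes in the fit, 2458 with limma voom, 614 with the replicate block, 5103 with the striatal covariate, 577 with near-identical libraries averaged, 400 without the 4 libraries, 982 without the 3 libraries, and 627 to 2099 with 1 library left out.

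Some log2 fold changes turned sign, most of them of genes that were not called. Between hTau and WT, Chrm2 was at -0.0014 with DESeq2, -0.0076 with DESeq2's size factors, -0.017 with at least 10 counts in every library, -0.0072 with the replicate block and -0.16 without the 4 libraries, and Chrm1 was at -0.045 with limma voom. With the striatal covariate Chrm1 was at -0.25, Chrm2 at -0.86, Chrm3 at -0.23, Chat at 0.31 and Slc18a3 at 0.11, and without the 4 libraries Chrm4 was at 0.22. For CgA-KO/hTau against hTau, the striatal covariate gave 0.27 for Chrm2, -1.04 for Chat, -1.09 for Slc18a3 and -0.73 for Slc5a7. Leaving out the 4 libraries gave 0.19, -0.83, -0.94 and -0.46 for the same genes, leaving out the 3 libraries gave 0.19, -0.65, -0.70 and -0.53, and limma voom gave -0.049 for Chrm4. For CgA-KO/hTau against WT, Chrm4 was at -0.049 with Ddx3y as a covariate, -0.27 with limma voom, -0.0084 with the replicate block and -0.33 with the striatal covariate. Chrm3 was at -0.052 with limma voom and at -0.52 with the striatal covariate, where it was called. Chrm2 was at 0.049 with near-identical libraries averaged, 0.034 without the 4 libraries and 0.22 without the 3 libraries. With 1 library left out the values that turned ran from -0.076 to 0.089 for Chrm1, -0.13 to 0.15 for Chrm2 and -0.29 to 0.063 for Chrm4 between hTau and WT, from -0.17 to 0.049 for Chrm2 between CgA-KO/hTau and hTau, and from -0.19 to 0.087 for Chrm2, -0.021 to 0.24 for Chrm3 and -0.14 to 0.22 for Chrm4 between CgA-KO/hTau and WT.

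Same replicate numbers were not taken to pair the samples. Of 16 pairs with the same number, 2 had deviations that correlated above 0.1 (r from -0.23 to 0.44), and 3 of 17 libraries correlated best with their own number. With the replicate block, the calls of Chrm3 (0.76, edgeR FDR 0.120), Chat (-3.44, edgeR FDR 0.0564) and Slc18a3 (-2.17, edgeR FDR 0.0901) between hTau and WT were lost, and those of Chrm5 and Slc5a7 were kept. Bche was still called between CgA-KO/hTau and hTau and Chrm3 was not (-0.70, edgeR FDR 0.0994). Against WT, CgA-KO/hTau lost the calls of Chrm5 (-2.56, edgeR FDR 0.0576) and Slc18a3 (-2.12, edgeR FDR 0.0886).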
